A study of Mus musculus with 12 samples.

Results

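The genes described here take up, store, release and sense iron in the cell. They are *Tfrc*, *Slc11a2*, *Slc11a1*, *Slc48a1*, *Slc40a1*, *Fth1*, *Ftl1*, *Ncoa4*, *Aco1* and *Ireb2*, a list of 10 names chosen for their function, and all 10 were among the 13232 genes of the table. RNA was measured in bone marrow-derived macrophages, which are grown from mouse marrow with the growth factor M-CSF. The donors were wild-type C57BL/6 mice kept on high-fat food (HFD) or on a normal diet (ND). All cultures used here received M-CSF at 20 ng/ml, were moved to serum-free medium on day 4 and were held at 1% oxygen for 1 h on day 7, with 3 libraries per diet. The labels do not say whether the 3 libraries of a diet came from separate mice, so p-values measure only the spread between these libraries, which may be technical. Normal-oxygen libraries were not analysed here, so no value below is a response to hypoxia. C57BL/6 strains carry a form of *Slc11a1* with impaired function, which both diets share.

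Iron bound to transferrin enters a cell through the transferrin receptor, is carried out of the endosome by a divalent metal transporter, and is stored inside ferritin or exported by ferroportin. Macrophages are the main recyclers of iron: they digest old red cells, carry haem out of the lysosome, break it down and send the iron back to the plasma. The cell senses its free iron with the iron regulatory proteins, which bind a hairpin in certain mRNAs, the iron-responsive element. Bound in front of the coding sequence the proteins block translation, and bound behind it they protect the mRNA from decay. Medium iron, cell iron and protein were not measured.

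The hairpins place the members in classes that the diet comparison can be read against, so they are printed before the values. GENCODE M21 transcripts (GRCm38, the assembly that mm10 names) were searched on the transcribed strand for an unpaired C, a stem of 5 bases, the loop CAGTGN and the 5 pairing bases. Full pairing was found in *Fth1*, *Ftl1*, *Slc40a1* and, 4 times, in *Tfrc*. A form with 1 extra base in the stem, searched because the hairpin of *Slc11a2* is known to be irregular, was found in *Slc11a2*. Each sequence is shown 5′ to 3′ with the loop in capitals, and T stands for U.
Fth1: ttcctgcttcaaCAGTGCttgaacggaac
Ftl1: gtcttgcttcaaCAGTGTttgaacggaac
Slc40a1: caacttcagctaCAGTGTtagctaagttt
Tfrc, the first: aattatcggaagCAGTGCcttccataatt
Tfrc, the second: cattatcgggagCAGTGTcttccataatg
Tfrc, the third: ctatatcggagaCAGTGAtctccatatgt
Tfrc, the fourth: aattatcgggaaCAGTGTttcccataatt
Slc11a2: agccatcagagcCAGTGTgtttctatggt

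The sites of *Fth1* (chr19:9982732-9982760, plus strand), *Ftl1* (chr7:45459779-45459807, minus strand) and *Slc40a1* (chr1:45925465-45925493, minus strand) lie in the 5′ UTR. The *Tfrc* sites lie in the 3′ UTR, at chr16:32631219-32631247, chr16:32631598-32631626, chr16:32631663-32631691 and chr16:32631710-32631738 on the plus strand. The *Slc11a2* site lies in the 3′ UTR of 1 annotated transcript, at chr15:100395153-100395181 on the minus strand. The fully paired form occurs in a UTR of 0.731% of 21877 protein-coding genes and the form with 1 extra base in 1.3%. No match was found in *Slc11a1*, *Slc48a1*, *Ncoa4*, *Aco1* or *Ireb2*, which says only that these letters are not in their transcripts. A match is a description and not evidence of binding in these cells.

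Levels between genes were compared as normalised signal per kb of annotated exon. Ferritin stood far above the rest: *Ftl1* averaged 151555 ± 13917 per kb and *Fth1* 118617 ± 6884 (SD over the 6 libraries). The ferritin shell is built from these light and heavy chains, and the heavy chain oxidises the iron that enters. Their rows together held 1.41% to 1.64% of the summed signal of a library. The transporters *Slc11a1* (4734 ± 588), *Slc40a1* (3303 ± 443) and *Slc48a1* (3296 ± 682) came next, followed by *Ncoa4* (2240 ± 175). Within each of the 6 libraries *Slc11a1* lay above *Slc40a1* and *Slc48a1*, and *Ncoa4* lay below both. *Slc40a1* was above *Slc48a1* in 3 of the 6, so these neighbours have no fixed order. *Tfrc* was lower, at 802 ± 154 per kb, and apart from its neighbours on both sides. The iron regulatory proteins, *Aco1* (388 ± 22.8) and *Ireb2* (370 ± 9.27), overlapped each other, with *Aco1* higher in 5 of 6 libraries. *Slc11a2* was last at 240 ± 24.4, so that the highest member lay 631-fold above the lowest. The length was that of all exons of the gene merged, which understates the level of a gene that uses only its shorter transcripts.

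**Figure D1:**
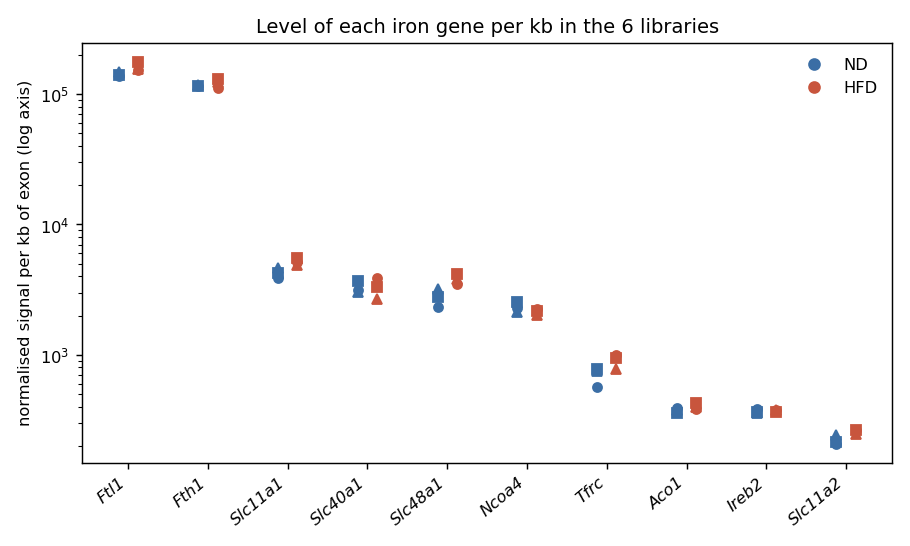
Normalised signal per kb of merged exon (log axis) for each iron gene, ordered by mean, with 1 point per library (blue ND, red HFD; circle, square and triangle for replicates 1, 2 and 3). The ferritin genes *Ftl1* and *Fth1* lie far above the others, the lowest *Fth1* library at 110696 per kb, and *Slc11a2* is lowest with a mean of 240.

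The diets were compared gene by gene on log2(signal + 1) with limma, fitted and adjusted over all 13232 genes. None of the 10 iron genes passed an adjusted p of 0.05, nor did any other gene (0% of all genes). At an unadjusted limma p under 0.05 there were 4 iron genes, *Slc48a1*, *Slc11a1*, *Tfrc* and *Slc11a2*, against 10.6% of all genes, and each of the 4 was higher in HFD, as were 5.4% of all genes under that rule (5.18% were lower). The 3 HFD values lay above the 3 ND values for 5 of the 10, the same 4 and *Ftl1*, against 7.44% of all genes, and for none did they lie below, against 7.07%. With the near-identical copies of *Ftl1* and *Ncoa4* counted in, 4 of the 10 were apart. The median log2 fold change of the 10 was 0.152, with 8 above 0 and 2 below, beside a median of -0.003 over all genes. With array weights the same 4 passed an adjusted p of 0.05, against 8.56% of all genes. These weights were largest for HFD replicate 2 (3.087) and ND replicate 1 (1.909), which are often the highest and the lowest library of a member, and smallest for ND replicate 3 (0.441). These shares describe a list chosen with earlier results of these data known and carry no test.

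The labelled cell type was checked first. All 8 macrophage markers were listed, with a summed signal of 345313 to 395574 in ND and 342872 to 402478 in HFD. Most of that sum was *Lyz2*, and 2 of the 8 were apart by diet (25%, against 14.5% of all genes): *Cd14* was lower in HFD (log2 fold change -0.29, limma adjusted p 0.281) and *Adgre1* higher (0.16, limma adjusted p 0.52). None of the globin genes among the erythroid markers was listed. Of 10 neutrophil markers 6 were listed, summing to 1712 to 2455 in ND and 2109 to 3430 in HFD, and of 6 stromal markers 3, summing to 177 to 549 and 51.8 to 337. All 6 listed neutrophil markers had positive log2 fold changes (median 0.296) and all 3 stromal markers negative ones (median -1.334). The neutrophil collagenase *Mmp8*, picked out after its values were seen, had 443, 463 and 452 in ND and 707, 1032 and 834 in HFD, without overlap (log2 fold change 0.90, limma adjusted p 0.113). It passed without ND replicate 3 (0.90, limma adjusted p 0.0196), without HFD replicate 1 (1.03, limma adjusted p 0.0276), with the replicate block (limma adjusted p 0.0358) and with array weights (1.06, limma adjusted p 0.00443), while the other alternatives gave an adjusted p of up to 0.367. Like *Slc48a1*, it was lowest in ND replicate 1 and highest in HFD replicate 2. The 9 markers of dividing cells summed to 17288 to 21475 in ND and 17628 to 23726 in HFD. The part of these cells in the results was not tested, and fewer cells of a type cannot be told apart from less RNA per cell in bulk samples. Estimated depth was 19046372 to 22805250 reads in ND and 23017031 to 24491491 in HFD, so every HFD library was deeper. On the first principal component (43.3% of the variance) ND replicate 3 scored 3.4, beyond HFD replicate 1 at 1.3, while the other ND libraries scored -14.0 and -13.5. Values without ND replicate 3 are given beside the results whose call they change. It was the ND library nearest to HFD on this component, and 233 genes (1.76%) passed without it, against 0 with all libraries. Passing without it is therefore no separate support for a difference.

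**Figure D2:**
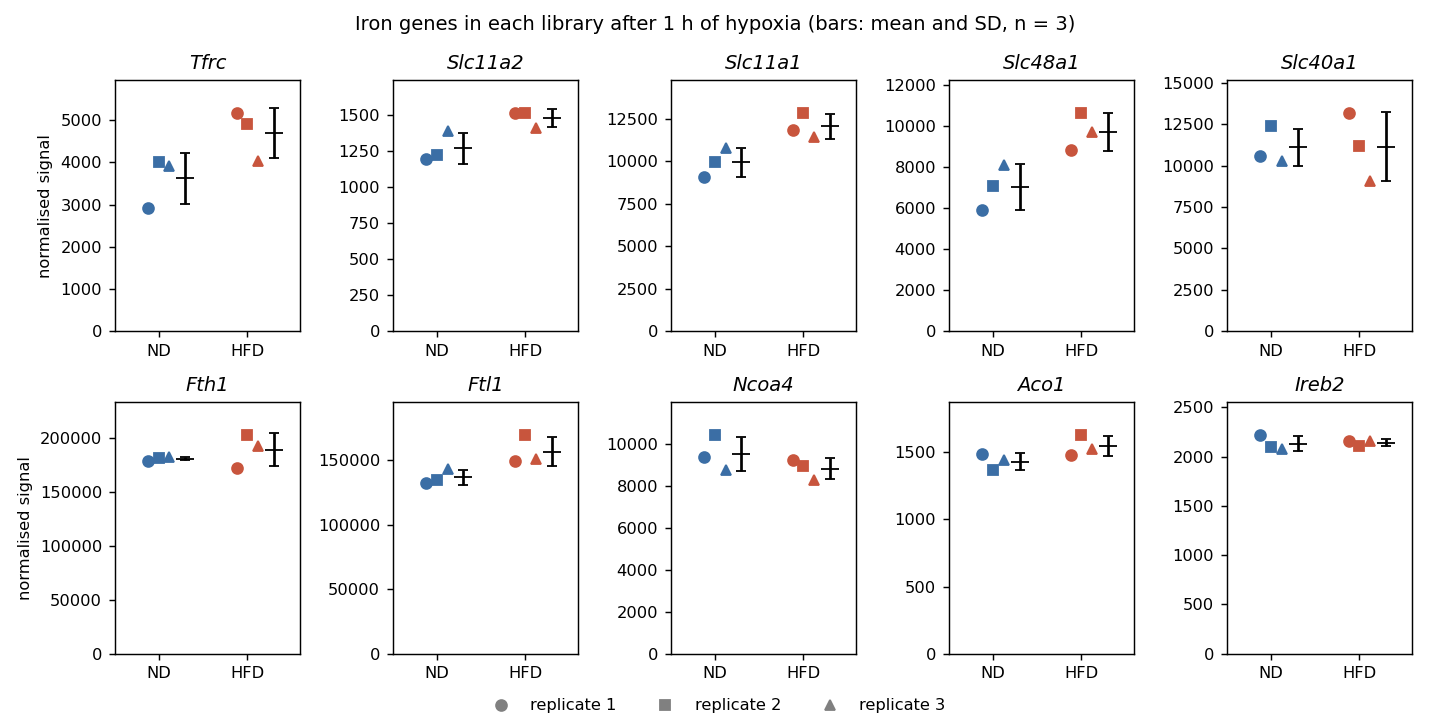
Normalised signal of the 10 iron genes in each library (axes from 0; points are libraries, bars the mean and SD of 3). HFD points lie above all ND points for *Tfrc*, *Slc11a2*, *Slc11a1*, *Slc48a1* and *Ftl1*, narrowly for *Tfrc* and *Slc11a2*, and overlap ND for the others.

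The member with the largest difference carries haem. *Slc48a1* encodes HRG1, the transporter that moves haem from the lysosome of a macrophage to the cytosol. Its signal, given for replicates 1, 2 and 3 in turn here and below, was 5897, 7044 and 8106 in ND and 8797, 10628 and 9686 in HFD. Every HFD library was above every ND library, and the lowest HFD value exceeded the highest ND value by 8.53%. The log2 fold change was 0.48 (SE 0.11, 95% interval 0.22 to 0.73), a 1.39-fold difference that did not pass the threshold over all genes (limma adjusted p 0.251, unadjusted rank 105 of 13232). Without ND replicate 3 the difference was 0.59 and passed (limma adjusted p 0.025, where 1.76% of all genes passed), and over the other alternatives the adjusted p reached 0.879. An exon of *Hdac7* overlaps *Slc48a1* on the opposite strand (gene at chr15:97778520-97792692, plus strand). Whether the counting used strand is not given in the sources used here. The *Hdac7* row was 3.95% to 5.62% of the *Slc48a1* signal. Its HFD values lay above its ND values by only 0.0353% of the highest ND value (log2 fold change 0.23, limma adjusted p 0.448). The part of *Hdac7* in the *Slc48a1* difference was not tested.

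*Slc11a1*, or NRAMP1, is the pump that drives iron and manganese out of the phagosome, away from ingested microbes. Its signal was 9066, 9939 and 10805 in ND and 11870, 12865 and 11435 in HFD. The diets did not overlap, and the gap was 5.83% of the highest ND value. The log2 fold change was 0.28 (SE 0.08, 95% interval 0.10 to 0.46, limma adjusted p 0.288). Leaving out ND replicate 1 gave 0.22 (limma adjusted p 0.878), and leaving out HFD replicate 2 gave 0.23 (limma adjusted p 0.886). Leaving out ND replicate 3 gave 0.34 (limma adjusted p 0.0564). Rows that share stretches with it, *Gm4829* (93.9% identical over 588 bases) and *Dcaf10* (90.1% over 151), were at most 1.54% and 7.25% of its signal, and both overlapped between diets.

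The related transporter *Slc11a2*, or DMT1, carries iron from the endosome into the cytosol after transferrin has been taken up. Its signal was 1195, 1225 and 1392 in ND and 1518, 1519 and 1410 in HFD. The diets were apart by only 1.29% of the highest ND value, since ND replicate 3 and HFD replicate 3 were nearly equal. The log2 fold change was 0.22 (SE 0.08, 95% interval 0.06 to 0.39, limma adjusted p 0.353), and 0.29 without ND replicate 3 (limma adjusted p 0.0657). It was 0.18 without ND replicate 1 (limma adjusted p 0.934) and 0.21 without HFD replicate 2 (limma adjusted p 0.918). *Slc11a1* stood over *Slc11a2* by a ratio of signals of 7.58 to 8.11 in ND and 7.82 to 8.47 in HFD. These ranges overlap, so the relation between the transporters showed no separation by diet. An unlisted gene, *Gm5475*, overlaps an exon of *Slc11a2* on the opposite strand.

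*Tfrc*, the transferrin receptor, had a signal of 2932, 4015 and 3921 in ND and 5177, 4902 and 4041 in HFD. ND replicate 1 was well below the other ND libraries, and HFD replicate 3 exceeded ND replicate 2 by only 0.652%. The log2 fold change was 0.38 (SE 0.13, 95% interval 0.10 to 0.67, limma adjusted p 0.353). It depended on single libraries: it was 0.24 without ND replicate 1 and 0.49 without HFD replicate 3. *Tfrc* is high in dividing cells. Of the 9 markers of such cells 4 had positive and 5 negative log2 fold changes, from -0.31 for *Ccnb1* to 0.29 for *Pcna*, and *Birc5* was lower in HFD without overlap (-0.28, limma adjusted p 0.353). Their part in the *Tfrc* difference was not tested.

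Ferroportin, encoded by *Slc40a1*, is the cell's only known iron exporter. Its signal was 10614, 12409 and 10294 in ND and 13199, 11195 and 9072 in HFD. HFD held both the highest and the lowest of the 6 values. The log2 fold change was -0.01 (SE 0.13), with a 95% interval from -0.29 to 0.28, and took either sign when 1 library was left out (-0.14 to 0.14). Expressed as a fold, the interval runs from 0.82 to 1.21. The ratio of *Tfrc* to *Slc40a1* within a library, which no size factor can change, was 0.276, 0.324 and 0.381 in ND and 0.392, 0.438 and 0.445 in HFD. All HFD ratios lay above all ND ratios, with a log2 difference of 0.39, described here without a test.

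The heavy chain of ferritin overlapped between diets, and the light chain did so once its copies were counted. *Fth1* had a signal of 178745, 181266 and 181845 in ND and 172465, 202491 and 192017 in HFD. The ND libraries were close together and lay within the range of HFD. The log2 fold change was 0.06 (SE 0.11, 95% interval -0.18 to 0.30, limma adjusted p 0.879). Without HFD replicate 1 it was 0.13, and dropping HFD replicate 2 left 0.0109. *Ftl1* had a signal of 132280, 134914 and 143048 in ND and 149221, 169506 and 151265 in HFD. Here the diets did not overlap, with a log2 fold change of 0.19 (SE 0.10, 95% interval -0.03 to 0.42, limma adjusted p 0.551). The separation of *Ftl1* held for its own row and not for the sum with its copies. Its transcript is 99.6% identical over 910 bases to *Ftl1-ps1*, whose row held 66853, 62316 and 96117 in ND and 77625, 83343 and 69398 in HFD. Summed with *Ftl1-ps1*, *Ftl2-ps* and *Gm15590*, an addition made after seeing the data, the light chain had 217541 to 257620 in ND and 244140 to 270582 in HFD. These sums overlap, and their log2 fold change was 0.13 (SE 0.12, limma adjusted p 0.742). *Gm10252*, which overlaps an exon of *Ftl1* on the opposite strand and is identical to it over 356 bases, was not added. Its row was 0.0767% to 0.137% of the *Ftl1* signal and lower in HFD without overlap (log2 fold change -0.36, limma adjusted p 0.318). The *Fth1* copy *Gm6977*, 90.5% identical over 524 bases, was 1.41% to 1.89% of the *Fth1* signal. The ratio of *Fth1* to *Ftl1* was 1.35, 1.34 and 1.27 in ND and 1.16, 1.19 and 1.27 in HFD, apart only before rounding, while *Fth1* against the summed light chain gave 0.706 to 0.833 and 0.706 to 0.783, which overlap. *Tfrc* over *Fth1* was 0.0164 to 0.0221 in ND and 0.021 to 0.03 in HFD, again overlapping.

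*Ncoa4* encodes the receptor that brings ferritin to the lysosome so that its iron is released. With all 6 libraries it was the only member with a negative log2 fold change beyond 0.1, with a signal of 9365, 10424 and 8779 in ND and 9255, 8934 and 8300 in HFD. The values overlapped, and the log2 fold change was -0.11 (SE 0.08, 95% interval -0.28 to 0.07, limma adjusted p 0.676). Leaving out ND replicate 2 gave -0.04, and leaving out HFD replicate 3 gave -0.06. The copy *Ncoa4-ps*, listed by RefSeq (GRCm38.p6) with the synonym *Gm6768* that GENCODE uses for it, is 99.9% identical to it over 1878 bases and had means of 4657 ± 82.4 (ND) and 4537 ± 644 (HFD; SD, n = 3). The sum of both rows gave -0.09 (SE 0.08), again with overlapping diets.

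The iron sensors had the narrowest intervals. *Aco1* encodes IRP1, which is an aconitase while it holds an iron-sulfur cluster and binds RNA without it. Its signal was 1486, 1365 and 1441 in ND and 1479, 1627 and 1525 in HFD, overlapping at HFD replicate 1, with a log2 fold change of 0.11 (SE 0.07, 95% interval -0.04 to 0.26), which was 0.0709 without HFD replicate 2. *Ireb2* encodes IRP2, whose protein is degraded when iron is plentiful. Its signal was 2218, 2099 and 2072 in ND and 2159, 2103 and 2159 in HFD, all HFD values within the ND range. Its log2 fold change was 0.01 (SE 0.06), of either sign across settings, and the 95% interval from -0.12 to 0.14 ends at a 1.10-fold higher level in HFD. The ratio of *Aco1* to *Ireb2* was 0.65 to 0.695 in ND and 0.685 to 0.774 in HFD, with overlap.

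**Figure D3:**
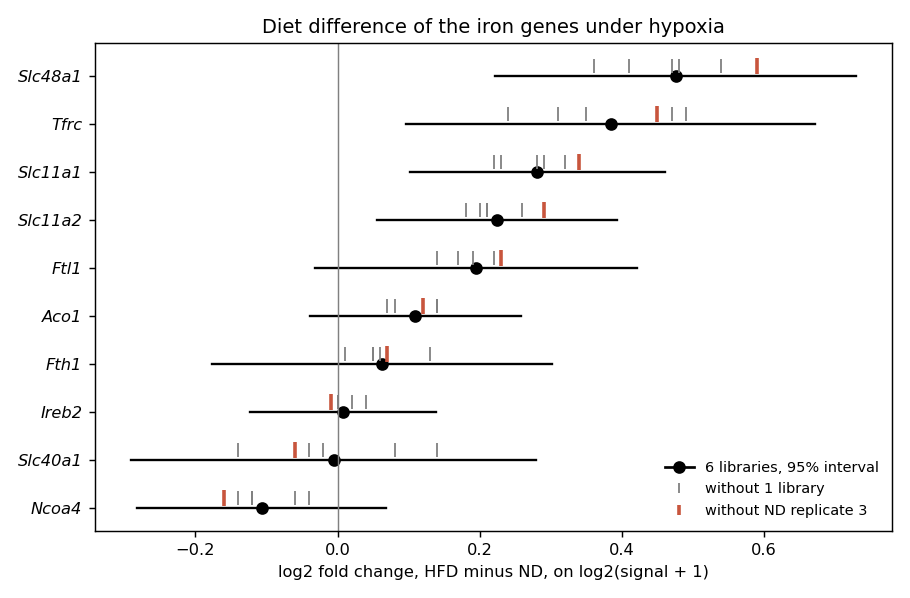
Log2 fold change (HFD minus ND, on log2(signal + 1)) of each iron gene with its 95% limma interval over 6 libraries (black), and the value when 1 library is left out (grey ticks; red without ND replicate 3). The intervals of *Slc48a1*, *Tfrc*, *Slc11a1* and *Slc11a2* lie above 0, and the other 6 include it.

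Set against the hairpins, the members with a site in the 3′ UTR, *Tfrc* and *Slc11a2*, were 2 of 2 with all HFD values above ND, against 7.44% of all genes. Of the 3 with a site in the 5′ UTR only *Ftl1* was, and only as a single row. Of the 5 without a match 2 were, *Slc11a1* and *Slc48a1*. The gaps of *Tfrc* and *Slc11a2* were narrow, at 0.652% and 1.29% of the highest ND value. The form with 1 extra base was searched because of *Slc11a2*. Among the related genes of the table, the same search matched a UTR of *Bola3* (full pairing) and of *Bach1*, *Cisd2* and *Epas1* (1 extra base). Of these, *Cisd2* had all HFD values above ND, and *Bach1*, *Epas1* and *Bola3* overlapped. Across members, HFD replicate 2 was the highest library for 6 of 10 and ND replicate 1 the lowest for 5 of 10, so the ends of the range often came from the same libraries. Counting error was at most 2.9% of the value for any member. For *Ireb2*, at 2.4%, it was of the order of the spread between libraries.

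**Figure D4:**
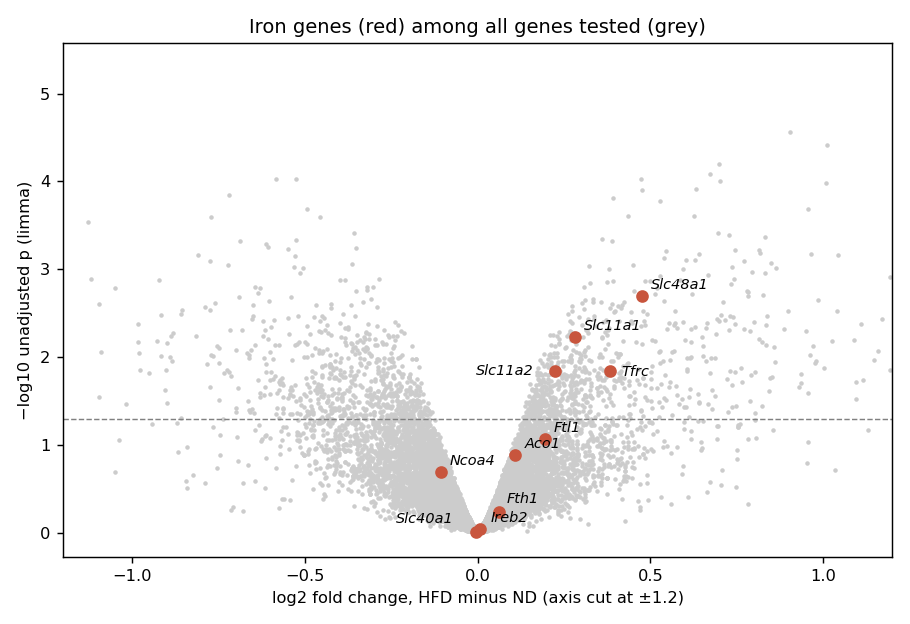
Log2 fold change against −log10 of the unadjusted limma p for all genes (grey) and the iron genes (red); 36 genes beyond 1.2 in either direction fall outside the axis, and the dashed line marks an unadjusted p of 0.05. The 4 iron genes above the line are all on the HFD side, inside the cloud of other genes.

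Around these members, 80 further iron and haem genes in 6 lists were examined, of which 65 were in the table. None passed the adjusted threshold, and 6 (9.23%) had an unadjusted limma p under 0.05, beside 10.6% of all genes. With array weights 6 of the 65 passed the adjusted threshold (9.23%, against 8.56% of all genes): *Hmox1*, *Alas1*, *Cd163*, *Slc39a8*, *Slc46a1* and *Blvrb*. Of the 6 at an unadjusted p with all libraries weighted equally, 4 were higher and 2 lower in HFD, and the median log2 fold change of the 65 was 0.029. That median rested on single libraries: it was -0.003 without ND replicate 2, 0.007 without HFD replicate 1, 0.010 without HFD replicate 2 or 3, 0.014 without ND replicate 1 and 0.050 without ND replicate 3.

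Haem genes included the largest positive difference of the 65, that of *Hmox1*. *Hmox1*, haem oxygenase, which opens the haem ring and frees its iron, had 9717, 11339 and 14256 in ND and 16188, 18687 and 18203 in HFD. The diets were apart by 13.5% of the highest ND value, and ND replicate 3 was the ND library nearest to HFD. Its log2 fold change was 0.60 (SE 0.13, limma adjusted p 0.189). Without ND replicate 3 it was 0.75 and passed (limma adjusted p 0.0127, where 1.76% of all genes passed). It was 0.47 without ND replicate 1 (limma adjusted p 0.65) and 0.56 without HFD replicate 2 (limma adjusted p 0.86). *Alas1*, the first enzyme of haem synthesis, had 2626, 2849 and 4119 in ND and 4153, 5234 and 4646 in HFD, and a log2 fold change of 0.57 (SE 0.15, limma adjusted p 0.278). It too passed without ND replicate 3 (0.77, limma adjusted p 0.0127). *Alas1* was 0.44 without ND replicate 1 (limma adjusted p 0.821) and 0.49 without HFD replicate 2 (limma adjusted p 0.882). Like *Slc48a1*, both were lowest in ND replicate 1 and highest in HFD replicate 2. The diets were thus apart for 2 of the 12 haem genes listed (16.7%, against 14.5% of all genes). Among the other 10 were *Blvrb*, a biliverdin reductase, at 0.18 (0.0860 without ND replicate 1) and *Fech*, which inserts the iron, at -0.04 (-0.0176 without HFD replicate 1 and -0.0703 without ND replicate 3).

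**Figure D5:**
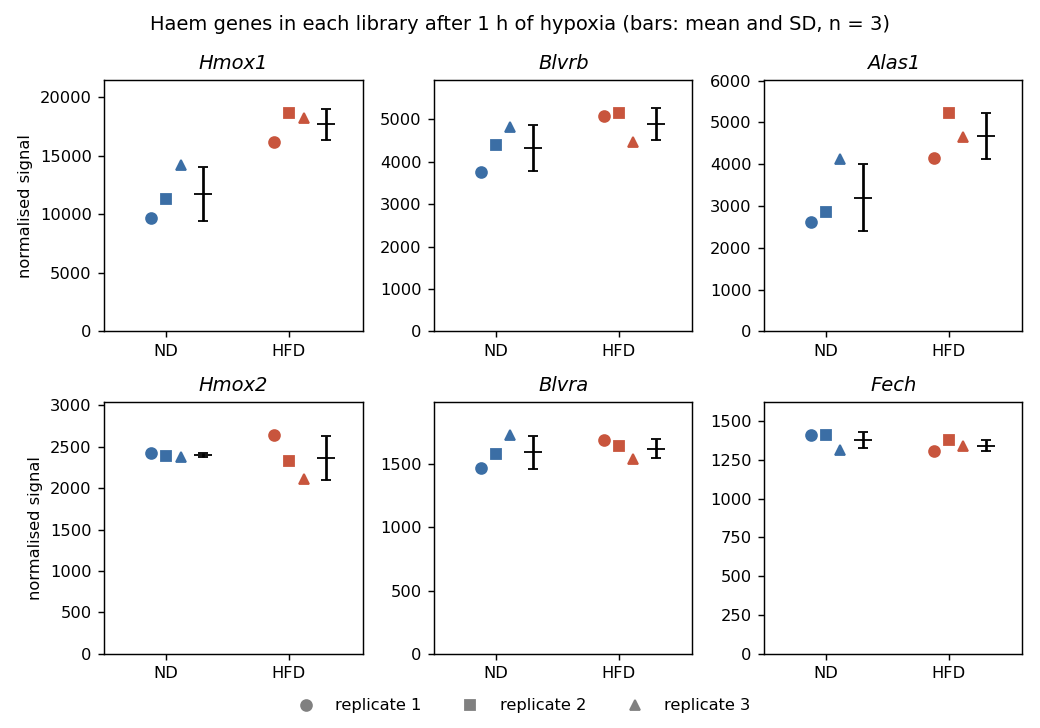
Normalised signal per library (axes from 0; bars are the mean and SD of 3) of the haem breakdown genes *Hmox1*, *Hmox2*, *Blvra* and *Blvrb* and of *Alas1* and *Fech*, which open and close haem synthesis. HFD lies above ND without overlap for *Hmox1* and *Alas1* and overlaps for the other 4.

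In the uptake list 9 of 15 genes were in the table, with a median log2 fold change of 0.007. *Slc39a8*, a zinc transporter that also carries iron, had means of 240 ± 11.2 (ND) and 184 ± 34.1 (HFD; SD, n = 3), without overlap (log2 fold change -0.40, limma adjusted p 0.356). *Cd163*, the receptor for haemoglobin bound to haptoglobin, was 904, 871 and 494 in ND and 562, 477 and 573 in HFD. ND replicate 3 was the low ND library here, and the log2 fold change of -0.45 (limma adjusted p 0.477) became -0.73 without it (limma adjusted p 0.0156). It was -0.29 without ND replicate 1 (limma adjusted p 0.956) and -0.32 without ND replicate 2 (limma adjusted p 0.762). *Steap3*, which reduces endosomal iron for *Slc11a2*, was at 0.01, and the importer *Slc39a14* at 0.07, with overlapping diets.

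In the list of storage genes and chaperones none of 8 had separate diets, against 14.5% of all genes. The chaperones that load ferritin, *Pcbp1* (0.10) and *Pcbp2* (0.03), the autophagy adaptor *Tax1bp1* (0.08) and *Fbxl5* (-0.01), which senses iron and marks IRP2 for decay, all had overlapping values. For *Pcbp1*, omitting HFD replicate 1 gave 0.17 and omitting HFD replicate 2 gave 0.0571. For *Tax1bp1*, omitting ND replicate 2 gave 0.12 and omitting ND replicate 3 gave 0.0291. Among export genes 4 of 8 were listed. *Slc46a1*, a folate transporter also reported to carry haem, had means of 79.2 ± 13.7 (ND) and 111 ± 19.4 (HFD; SD, n = 3; log2 fold change 0.49, limma adjusted p 0.404), and *Cp*, the plasma ferroxidase, overlapped at -0.18. The *Cp* value depended on single libraries, from -0.39 without HFD replicate 1 and -0.37 without ND replicate 3 to -0.0280 without HFD replicate 2 and -0.0031 without ND replicate 2.

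The mitochondrial list of iron-sulfur cluster genes had 21 of 22 members in the table and a median log2 fold change of 0.001. Only *Fdx2*, a ferredoxin of cluster assembly, had an unadjusted limma p under 0.05 (4.76% of the list, against 10.6% of all genes), with means of 153 ± 22 (ND) and 115 ± 13 (HFD; SD, n = 3; log2 fold change -0.40, limma adjusted p 0.39). *Hspa9*, the chaperone of cluster transfer, was at 0.15 with overlap (0.0908 without HFD replicate 3 and 0.23 without ND replicate 3). Of 11 regulators listed, *Cisd2*, an iron-sulfur protein of the endoplasmic reticulum, had means of 1069 ± 31.7 (ND) and 1186 ± 23.4 (HFD; SD, n = 3; log2 fold change 0.15, limma adjusted p 0.431). *Bach1*, the haem-sensing repressor of *Hmox1*, was at -0.09 and *Hif1a* at 0.13, both with overlapping values; *Hif1a* was at 0.0590 without ND replicate 3 and 0.22 without ND replicate 2. For *Bach1*, omitting ND replicate 1 gave -0.0453, omitting ND replicate 3 gave -0.13 and omitting HFD replicate 3 gave -0.0535.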

How the data were processed

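The deposited table holds a normalised signal per gene for the 6 hypoxia libraries. Per the submitters' processing notes STAR, Partek and the build mm10 were used. The quantifier, annotation and filter are not given in the sources used here. From the values, the authors' signal is estimated counts divided by a size factor: in the range 5 to 1000, 57.1% to 58.4% of a library's values fell on multiples of a single step (within 0.02 of a read). As the rest were fractional, no count test was run. Column sums over that step gave the depths. The labels name only 1 diet besides HFD, so NC in a column's name was read as ND.

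The diets (3 libraries each) were compared on log2(signal + 1) in R 4.3.3 using limma 3.58.1 (mean-variance trend, two-sided), with Benjamini-Hochberg adjustment over all 13232 genes and no filter. SE is limma's moderated standard error. Fold changes on this scale understate changes of low genes. The procedure was tested on simulated data. The members and lists were chosen with earlier results of these data known. Named genes were all members, the 2 genes with the smallest p in each related list, and *Hmox1*, *Fbxl5*, *Steap3*, *Slc39a14*, *Pcbp1*, *Pcbp2* and *Bach1*. Rows that copy a member are named too. Added after their values were seen were *Blvrb*, *Fech*, *Hmox2*, *Blvra*, *Hdac7*, *Mmp8*, *Lyz2*, *Cd14*, *Adgre1*, *Ccnb1*, *Pcna*, *Birc5*, *Epas1* and *Bola3*. Hairpins and exon lengths came from GENCODE M21, copies from a blastn search at 90% identity or more. Alternatives were a pseudocount of 0.1, column-total scaling, quantile normalization, minimum values of 10 in every library or a mean of 100, no trend, array weights, a replicate block and each library left out.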

Additional observations from a re-analysis of the deposited data

How the results depend on the processing

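No gene passed an adjusted p of 0.05 with limma (1401 at an unadjusted p) or with a pseudocount of 0.1, column totals, quantile normalization, either filter or no trend. Array weights gave 1133 genes and the replicate block 31, and leaving out 1 library gave 0 to 233, the most without ND replicate 3. The share of all genes at an unadjusted p under 0.05, 10.6%, was 27.6% with array weights (3646 genes), 17.5% without ND replicate 3 (2309), 5.29% without ND replicate 1 (700) and 5.49% without HFD replicate 2 (726). The related genes, at 9.23%, were then at 27.7%, 18.5%, 3.08% and 4.62%. Among the iron genes 4 passed with array weights (*Tfrc*, *Slc11a1*, *Slc11a2* and *Slc48a1*), and 0 to 1 without 1 library. Iron genes at an unadjusted p under 0.05 numbered 4, and 2 to 4 without 1 library; the 2 without ND replicate 1, and likewise without HFD replicate 2, were *Slc11a1* and *Slc48a1*. Their median of 0.152 was 0.208 with array weights and 0.104 to 0.177 without 1 library, and the count with separate diets was 5 to 7 there and 4 with *Ftl1* and *Ncoa4* summed with copies. Diets separate more easily with 1 library fewer, and the share of all genes apart was not computed there. The cause of these changes was not tested. *Slc40a1* reversed with array weights (0.0246), without ND replicate 2 (0.0771) and without HFD replicate 3 (0.14), with a range of -0.14 to 0.14 without 1 library. *Ireb2* reversed with column totals (-0.0047), quantile normalization (-0.0110), array weights (-0.0303), and without ND replicate 2 (-0.0025) or 3 (-0.0118), within -0.0118 to 0.0372 without 1 library. *Fbxl5* gave 0.0099 with array weights and 0.0005 to 0.0118 without ND replicate 1 (0.0031), ND replicate 2 (0.0053), HFD replicate 1 or HFD replicate 3, the lowest being -0.0320. *Steap3* gave -0.0056 with column totals and -0.0387, -0.0297 and -0.0138 without ND replicate 2, HFD replicate 2 and HFD replicate 3, up to 0.0637. *Slc39a14* was -0.0233 without HFD replicate 3 (up to 0.15) and *Pcbp2* -0.0448 without ND replicate 3 (up to 0.0832). The other 8 of the 10 iron genes kept their direction under every alternative; of the related genes only those named by rule, *Blvrb* and *Fech* were recomputed singly. Libraries sharing a replicate number did not deviate together (correlations of -0.01, -0.04 and -0.00), and the main comparison was not paired. Mismatched pairs were not compared, so these values cannot exclude a shared preparation. The replicate block called none of the iron genes. With 3 libraries per diet, differences of the size of *Fth1* or *Slc40a1* lie within the spread.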
